A study of Mus musculus with 112 samples.

Results

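The immediate early genes described here are 10 genes, Fos, Fosb, Jun, Junb, Atf3, Egr1, Ier2, Ier3, Dusp1 and Zfp36, followed in mouse mammary tumours. They were taken as every probe set, a group of short probes on an Affymetrix array that reads 1 transcript, whose only gene symbol in the platform annotation is 1 of the 10 names. This gave 11 of the 22626 probe sets of array A (MOE430A), 2 of them for Jun and 1 for each other gene, and 10 of the 12393 genes that array A holds. Array B (MOE430B) had 0 probe sets of these genes. The tumours arose without further treatment in mice whose polyoma middle T oncogene (PyMT) is driven by the mouse mammary tumour virus promoter (MMTV), which is active mainly in mammary epithelium. The strain background of all groups was AKXD x PyMT, AKXD being recombinant inbred lines made from AKR/J and DBA/2J mice, and a group is the set of tumours of 1 AKXD subline. The series holds 56 tumours of 18 sublines, with 3 tumours in 16 sublines and 4 in 2. Every mouse carried the oncogene and no untransformed mammary gland was used as a control, so each comparison is between tumours. No source used here gives the ages of the mice.

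Immediate early genes are transcribed within minutes of a growth factor, stress or injury signal, without new protein synthesis. Kinase cascades such as Ras to ERK phosphorylate transcription factors that already sit at their promoters, and middle T antigen acts on the same cascades through Src, PI3 kinase and Shc. Fos and Jun family proteins pair to form AP-1, Egr1 binds GC-rich sites, Dusp1 removes phosphate from the kinases and Zfp36 speeds the decay of AU-rich messages, the last 2 as negative feedback. Their messages are short-lived.

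Promoter sequences are shown for the genes of the 2 pairs that the correlations below turn on, Fos with Dusp1 and Jun with Zfp36. Each runs from position -200 to position -1, -1 being the base before the RefSeq start of the gene (build GRCm38.p6), and is written 5′ to 3′ on the gene's own strand. Fos lies on the plus strand, at chr12:85473690-85473889. The others lie on the minus strand, Dusp1 at chr17:26508473-26508672, Jun at chr4:95052223-95052422 and Zfp36 at chr7:28379229-28379428. Capitals mark matches, on either strand, to the cyclic AMP response element (CRE, TGACGTCA) or its core (TGACGT), the TATA box (TATAAA), the Egr1 site (GCGGGGGCG or GCGTGGGCG) or the CArG box, which serum response factor binds.
Fos: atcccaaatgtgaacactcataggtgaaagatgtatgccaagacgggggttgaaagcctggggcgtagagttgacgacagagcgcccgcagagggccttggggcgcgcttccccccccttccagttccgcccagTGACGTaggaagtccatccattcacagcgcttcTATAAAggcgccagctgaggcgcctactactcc
Dusp1: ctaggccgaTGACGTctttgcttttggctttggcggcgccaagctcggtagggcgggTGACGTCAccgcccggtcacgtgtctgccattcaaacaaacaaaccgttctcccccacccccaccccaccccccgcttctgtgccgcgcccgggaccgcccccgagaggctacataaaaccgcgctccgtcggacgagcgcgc
Jun: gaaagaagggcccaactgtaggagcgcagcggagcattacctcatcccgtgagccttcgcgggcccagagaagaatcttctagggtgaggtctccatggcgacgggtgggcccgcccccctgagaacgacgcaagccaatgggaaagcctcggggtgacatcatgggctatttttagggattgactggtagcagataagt
Zfp36: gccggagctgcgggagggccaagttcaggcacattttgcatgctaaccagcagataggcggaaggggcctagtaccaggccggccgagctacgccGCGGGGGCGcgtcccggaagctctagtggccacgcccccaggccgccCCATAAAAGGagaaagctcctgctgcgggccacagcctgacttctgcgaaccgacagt
The Fos stretch held a CRE core at -66 and a TATA box at -33. Dusp1 held a whole CRE from -143 to -136, which contains 2 overlapping matches to the core, and another core at -191. Zfp36 held an Egr1 site at -105 and a CArG box at -58, and the Jun stretch held none of the motifs.

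RefSeq windows of 250 bases before to 50 bases after the start were given for 8 of the 10 genes, all but Egr1 and Ier2. A CRE core was found in 3 of the 8, Fos, Dusp1 and Atf3 (at -8), and in 7.513% of all 32851 windows of that length. The whole CRE was found in 1 (Dusp1) and in 1.79% of all windows, the letters TATAAA in 2 (Fos, and Junb from position 0, which is the start itself, to 5) and in 13.616%, and the Egr1 site in 2 (Fosb, at -50, and Zfp36) and in 3.467%. The CArG box was in 1 (Zfp36) and in 1.629%, and the AP-1 site TGACTCA in 0 of the 8 and in 5.202%. These are matches of letters in a window and say nothing about binding.

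The values are log2 expression values made by RMA and were used as deposited. On array A the 3 tumours of subline 23 and tumour 3 of subline 25 stood apart, with a median correlation with the other arrays of 0.223 to 0.948 against at least 0.97 on the 52 others, and they were left out of what follows unless stated, which leaves 17 sublines. Tumour 1 of subline 21 had the lowest correlation among the 52. The luminal epithelial markers Epcam (12.32 to 13.35) and Krt8 (11.60 to 12.94) were high in all 52 tumours. Probe sets of a bacterial RNA that is absent from the samples had a mean of 4.54 to 4.78. Other luminal markers varied more, Krt19 from 8.27 to 11.67 and Cldn4 from 8.28 to 11.40. In bulk samples, fewer cells of a type and less RNA per cell cannot be told apart. Each tumour came from a separate animal by its label, so p-values measure sublines against the spread between mice.

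Apart from Fosb, each of the 10 genes read above the highest absent-RNA control probe set of the array (6.82 to 7.42) in every tumour. Between the lowest and the highest of the 52 tumours the difference ran from 1.65-fold (the dimmer Jun probe set) to 3.28-fold (Dusp1). The SD over tumours was higher than the median of all probe sets (0.15 on the log2 scale) for 11 of the 11 probe sets, with a median of 0.25. Dusp1, Atf3, Egr1, Fos, Junb and Ier3 had SDs at percentiles 91.6, 90.1, 89.2, 89.0, 88.4 and 85.7 of all probe sets. The dimmer Jun probe set (percentile 51.4) and Ier2 (57.8) lay near the middle, as did Zfp36.

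Differences among sublines were tested by the moderated F test of limma, with p-values adjusted over all 22626 probe sets by the Benjamini-Hochberg method, and an adjusted p under 0.05 is a call. By this test 0 of the 11 probe sets were called, where 1.74% of all probe sets on the array were. At an unadjusted p under 0.05 there were 2 of 11 (18.2%), Atf3 and Fos, beside 15.2% of all probe sets. The intraclass correlation, the share of variance that lies between sublines, had a median of 0.0385 over the 11 probe sets and 0.0482 over all. It was below 0 for Dusp1, Egr1 and Zfp36, whose tumours differed within a subline at least as much as across sublines.

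**Figure D1:**
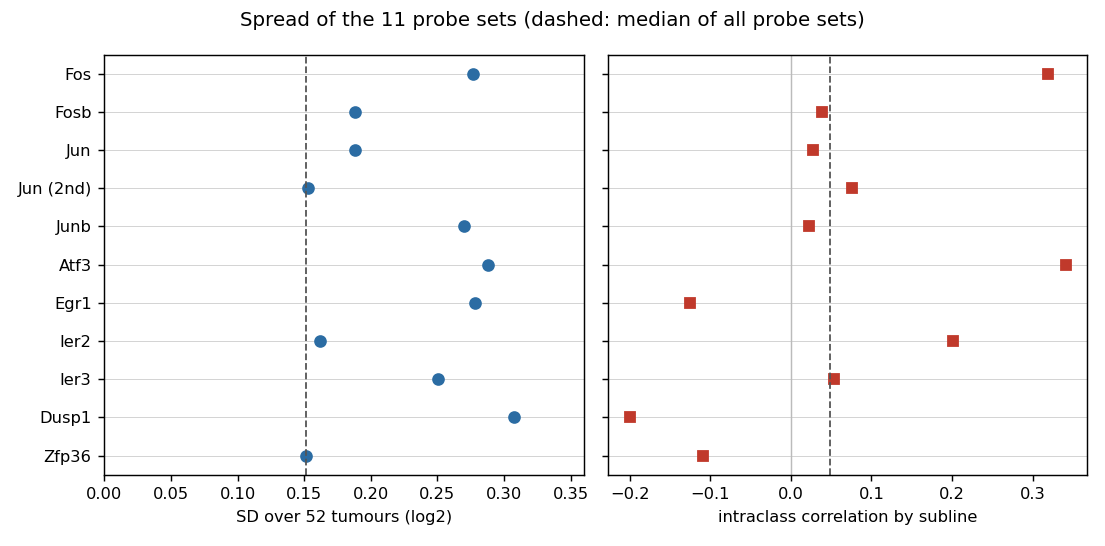
SD over the 52 tumours on the log2 scale (left, circles) and intraclass correlation by subline (right, squares) of each of the 11 probe sets, with the median of all probe sets as a dashed line and the dimmer Jun probe set marked 2nd. All SDs lie at or right of the dashed line, and Atf3 (0.34) and Fos (0.32) have the highest intraclass correlations while that of Dusp1 (-0.20) is the lowest.

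Fos, the AP-1 partner whose message is made and lost within a short time of a signal, ranged from 10.17 in tumour 2 of subline 3 to 11.45 in tumour 3 of subline 18, with a median of 10.95. The lowest subline was 14, at 10.47, 10.63 and 10.41 in its 3 tumours, and the highest was 28, at 11.29, 11.19 and 11.28. The tumours of these 2 sublines do not overlap, but the 2 were picked as the lowest and highest of 17 means, so this is no test. The range of subline means was 1.69-fold, at percentile 91.8 of all probe sets. The F test was not passed (limma adjusted p = 0.150). Subline 14 lay 0.44 below the mean of the other sublines on the log2 scale (-0.44 ± 0.13, SE, 95% interval -0.71 to -0.17, limma adjusted p = 0.416). Subline 28 lay above it by 0.36 ± 0.13 (SE, limma adjusted p = 0.276). Neither was called, and subline 3 held both the lowest tumour (10.17) and a tumour at 11.11, which is above the median.

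Atf3, a stress-induced factor of the ATF family that pairs with Jun proteins, had the widest range of subline means, 1.88-fold (percentile 95.1). It ranged from 7.65 in tumour 1 of subline 14 to 9.08 in tumour 2 of subline 2, with a median of 8.46. Subline 14 was lowest, at 7.65, 7.99 and 7.95, and subline 16 highest, at 8.63, 8.70 and 8.99. Those 2 sublines, again picked as the extremes, do not overlap, but tumours of sublines 7, 13 and 21 read as low as 7.98, 7.96 and 7.87. The F test was not passed either (limma adjusted p = 0.121). Subline 14 lay below the others by 0.59 (-0.59 ± 0.14, SE, 95% interval -0.86 to -0.31), the smallest unadjusted p among the comparisons of 1 subline in these genes, at an adjusted p of 0.153 by limma. In that subline 0.0221% of all probe sets were called. Subline 14 had the lowest mean milk protein score of the 17 sublines (-1.25, in a range up to 0.50). Its tumours 1, 2 and 3 scored -2.94, -0.21 and -0.60, so that mean rests largely on tumour 1. The part of this score in the low Atf3 and Fos values was not tested.

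Fosb, another Fos family protein, ranged from 6.36 to 7.23 with a median of 6.76, 1.83-fold in all. In 50 of the 52 tumours it lay below the highest of the absent-RNA control probe sets of its array (6.82 to 7.42), so its values lie near background. Its lowest subline was also 14, at 6.50, 6.60 and 6.43, and the highest was 21, at 6.87, 7.04 and 6.90. The F test was not passed (limma adjusted p = 0.680). Subline 14 was thus the lowest of the 17 in Fos, Fosb, Atf3, Ier3 and Dusp1, and none of these differences was called. Counted from the lowest, it was at place 3 in Ier2 and at places 4 and 5 in the Jun probe sets. In Egr1, Junb and Zfp36 it was at places 6, 8 and 11. How often it was lowest over all probe sets was not computed.

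Jun, the DNA-binding partner of Fos, was read by 2 probe sets, of which the brighter ranged from 10.16 in tumour 3 of subline 13 to 10.93 in tumour 1 of subline 9 (median 10.59). The dimmer ranged from 8.69 in tumour 1 of subline 21 to 9.41, again in tumour 1 of subline 9. The 2 probe sets followed each other over the 52 tumours with r = 0.785 and rho = 0.772 (permutation p = 1e-05 for each, the smallest that 100000 permutations can give, and r = 0.766 without the 2 tumours farthest from the median). The F test was passed by neither (limma adjusted p = 0.701 and 0.631).

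Junb, a Jun family protein that can oppose Jun, ranged 2.41-fold, from 8.88 in tumour 1 of subline 3 to 10.15 in tumour 3 of subline 16, with a median of 9.53. Subline 27 had the lowest mean (9.24 ± 0.06, SD, n = 3) and subline 16 the highest (9.79 ± 0.32), and the F test was not passed (limma adjusted p = 0.690). Within subline 10 its tumours read 10.04, 8.97 and 9.61, which spans most of the range of all tumours.

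Egr1, a zinc finger factor induced through serum response factor, ranged 2.86-fold, from 9.94 in tumour 3 of subline 13 to 11.46 in tumour 1 of subline 10, with a median of 10.66. Subline 10, which had the highest mean (10.94), was at 11.46, 10.31 and 11.06, on both sides of the median. Subline 13 was at 10.98, 10.85 and 9.94, so the lowest tumour lay well away from the other 2 of its subline. The F test gave an adjusted p of 0.899 with limma, and the intraclass correlation was -0.12 (percentile 11.8).

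Ier2 and Ier3 are small growth factor-induced proteins, Ier2 nuclear and Ier3 linked to cell survival. Ier2 gave the 1 call among 187 comparisons of a subline with the others (11 probe sets in 17 sublines), where 0.459% of all such comparisons were called. It was lower in subline 21, by 0.36 (-0.36 ± 0.09, SE, 95% interval -0.54 to -0.19, limma adjusted p = 0.0138), a subline in which 3.40% of all probe sets were called. The 3 tumours there read 9.68, 10.39 and 10.43. The first of them was the lowest of all 52, with the next tumour at 10.27, and the other 2 lay inside the range of the other sublines. Without tumour 1 of subline 21 the difference fell to -0.12 ± 0.08 (SE, limma adjusted p = 0.483). That tumour also had a luminal score of -1.03 and a milk protein score of -1.39, against -0.08 and -0.10 for the luminal score in the other 2 tumours of its subline, and their part in the Ier2 value was not tested. Subline 21 was also the lowest of the 17 in the mean luminal (-0.40), adipocyte (-0.81), T cell (-0.14) and B and plasma cell (-0.30) scores. Its mean macrophage (-0.25), skeletal muscle (-1.35) and proliferation (-0.17) scores were also the lowest, and its hypoxia score (0.46) the highest. Tumour 1 was the most extreme of its 3 tumours in the luminal, adipocyte, hypoxia and proliferation scores, the last at -0.61, against 0.13 and -0.02. In the T cell (0.03), macrophage (0.20) and skeletal muscle (-0.76) scores tumour 1 lay above the other 2, and in the B and plasma cell score between them. Composition scores here are the adipocyte, T cell, B and plasma cell and skeletal muscle scores. With them as covariates the difference was -0.37 (limma adjusted p = 0.0175). That fit kept tumour 1 of subline 21, and the luminal, milk protein, macrophage, hypoxia and proliferation scores were not among its covariates.

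Without that tumour Ier2 ran only from 10.27 to 10.87, with a median of 10.50 over all 52. Ier3 ranged from 10.14 in tumour 1 of subline 11 to 11.24 in tumour 3 of subline 3, with a median of 10.78. Its highest sublines were 3 (10.98 ± 0.23) and 16 (10.94 ± 0.07) and its lowest 14 (10.52 ± 0.31, SD, n = 3 each), and the F test was not passed (limma adjusted p = 0.636).

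The feedback genes Dusp1 and Zfp36 had intraclass correlations below 0. Dusp1 ranged from 8.23 in tumour 2 of subline 3 to 9.95 in tumour 3 of subline 2, with a median of 9.08. Subline 3 read 9.32, 8.23 and 8.99, and subline 2 read 8.98, 9.09, 9.95 and 8.98, so each extreme stood alone in its subline. The F test gave an adjusted p of 0.960 with limma, and the intraclass correlation of -0.20 was at percentile 3.57 of all probe sets. Zfp36 ranged 1.70-fold, from 9.42, again in tumour 2 of subline 3, to 10.19 in tumour 2 of subline 21, with a median of 9.75 (limma adjusted p = 0.900). Tumour 2 of subline 3 was thus the lowest of the 52 in Fos, Dusp1 and Zfp36.

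**Figure D2:**
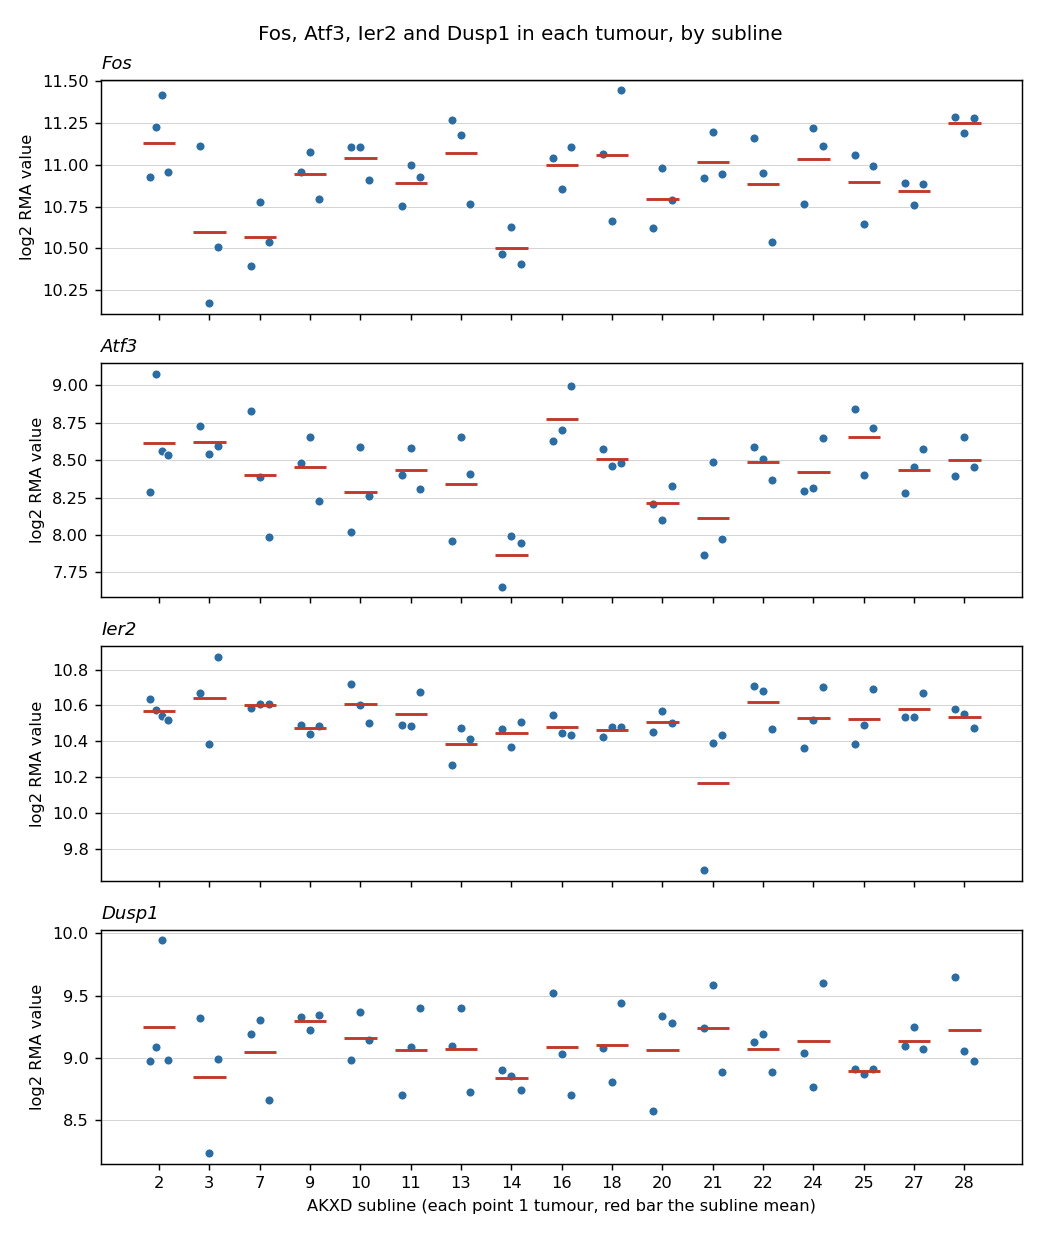
Log2 RMA values of Fos, Atf3, Ier2 and Dusp1 in each of the 52 tumours (points) with the subline mean (red bar), by AKXD subline on the horizontal axis, each gene on its own vertical scale. Subline 14 is lowest in Fos and Atf3, the low mean of Ier2 in subline 21 comes from 1 tumour at 9.68, and the Dusp1 tumours of 1 subline spread as widely as the sublines do.

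The arrays that stood apart change this picture. Tumour 3 of subline 23 and tumour 3 of subline 25 each lay below the lowest of the 52 tumours in 9 of 11 probe sets, and both lay above the highest in Fosb (9.12 and 7.70). Absent RNA also read high on these arrays. The highest absent-RNA control was at 8.57 in tumour 3 of subline 23, where the mean for the bacterial RNA was 7.73, and at 7.70 in tumour 3 of subline 25, level with its Fosb value. The part of this background in the Fosb values was not tested. Fos, for example, read 11.09, 9.99 and 8.12 in the 3 tumours of subline 23, and Fosb read 6.62, 6.75 and 9.12. In tumour 1 of that subline the Gapdh signal of the 3' end minus the 5' end, a measure of RNA quality, was 1.23. On the 52 kept arrays it lay between -0.28 and 0.19. The part of RNA quality in these values was not tested. With all 56 arrays the F test called 1 of the 11 probe sets, that of Junb (limma adjusted p = 0.00855), where 3.93% of all were called. In subline 23 8 of the 11 were called, Fosb higher by 0.74 ± 0.23 (SE, limma adjusted p = 0.00441) and the other 7 lower, among them Fos by 1.15 ± 0.28 and Jun, on its brighter probe set, by 1.48 ± 0.32 (SE). Of all probe sets on the array 69.3% were called in subline 23 in that fit, beside 72.7% of the 11, so the count of members is near the background. Over all sublines 3.86% of comparisons were then called.

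Of the 45 pairs of the 10 genes, 40 had a positive r from tumour to tumour, and the lowest r was -0.206 (Atf3 with Egr1). A part of the pairs, 18 of the 45, were correlated over the 52 tumours at an adjusted permutation p under 0.05 (two-sided, 100000 permutations, adjusted over the 45). Each of the 18 was positive. Of all gene pairs on the array, 13.3% had a positive r at least as high as the smallest of the 18 (r = 0.322). The median r was 0.292 over the 45 pairs and -0.004 over all gene pairs. The probe set with the higher mean stands for Jun here, tumours of 1 subline are not fully independent, and 16 pairs were called by rank correlation.

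The highest correlation was that of Fos with Dusp1 (r = 0.591, rho = 0.505, adjusted permutation p = 0.0006 and 0.00129, r = 0.556 without the 2 tumours farthest from the Fos median). Jun with Zfp36 followed (r = 0.552, rho = 0.541, adjusted permutation p = 0.0006 and 0.00113, r = 0.484 without the 2 farthest). Egr1 also correlated with Zfp36 (r = 0.532), Jun with Dusp1 (r = 0.519), Junb with Zfp36 (r = 0.509), Fos with Fosb (r = 0.499), Fos with Jun (r = 0.493) and Jun with Atf3 (r = 0.492). Fos, Dusp1 and Zfp36 each had 5 called partners of 9, Jun and Egr1 4, Fosb, Junb, Atf3 and Ier3 3, and Ier2 1.

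**Figure D3:**
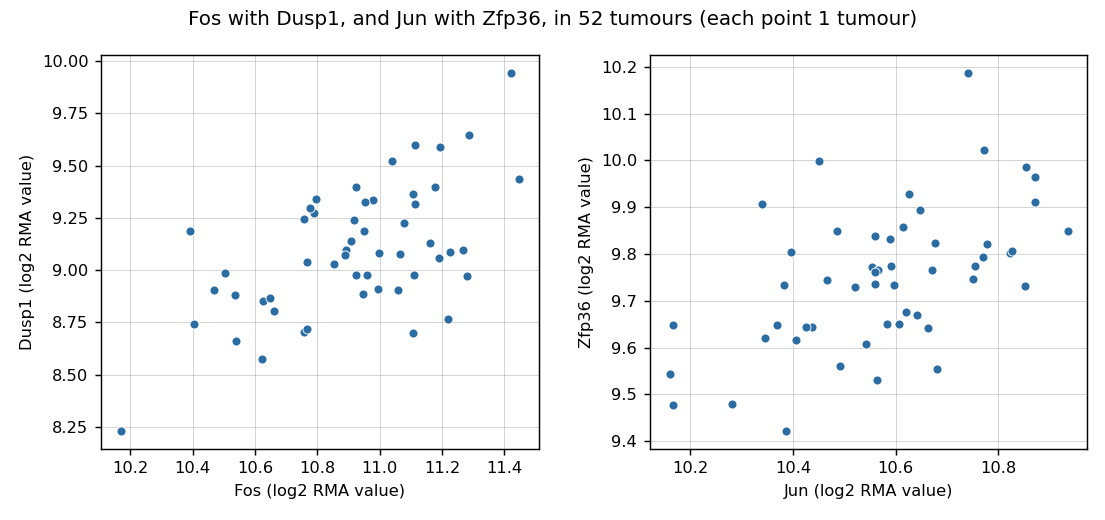
Log2 RMA values of Fos against Dusp1 (left) and of Jun against Zfp36 (right) in the 52 tumours, each point 1 tumour. Both clouds rise to the right (r = 0.591 and 0.552), and the point at the lower left of the left panel is tumour 2 of subline 3, with Fos at 10.17 and Dusp1 at 8.23.

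The correlations were also computed after each subline's mean was subtracted, which leaves only differences between mice of the same subline. The median r over the 45 pairs was then 0.306, against -0.001 for all gene pairs. With tumours permuted freely, 25 pairs were called, 24 positive (53.3%, where 16.8% of all gene pairs had a positive r at least as high as the smallest of these, 0.306) and 1 negative, Fosb with Egr1 (r = -0.308). Free permutation takes no account of the subline means that were subtracted. With tumours permuted only inside their own subline, 12 pairs were called (26.7%), each of them positive. The smallest r of the 12, 0.415, was reached by 16 of the 45 pairs (35.6%) and by 9.60% of all gene pairs. Of the 12, 10 were also called over tumours.

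The 12 pairs join Zfp36 with Jun (r = 0.698, adjusted permutation p = 0.0009), Egr1 (r = 0.541), Junb (r = 0.508), Dusp1 (r = 0.489) and Ier3 (r = 0.485), and Dusp1 with Fos (r = 0.585, adjusted permutation p = 0.0072), Jun (r = 0.581) and Egr1 (r = 0.415). The others were Jun with Egr1 (r = 0.482) and Fos (r = 0.427), Junb with Ier3 (r = 0.451) and Ier2 with Ier3 (r = 0.522). Fosb, which read near the absent-RNA controls, and Atf3 had no called partner within sublines by this permutation. Fosb with Egr1, at an adjusted p of 0.194, was not called. Without tumour 1 of subline 21 the correlation of Ier2 with Ier3 within sublines was 0.449.

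**Figure D4:**
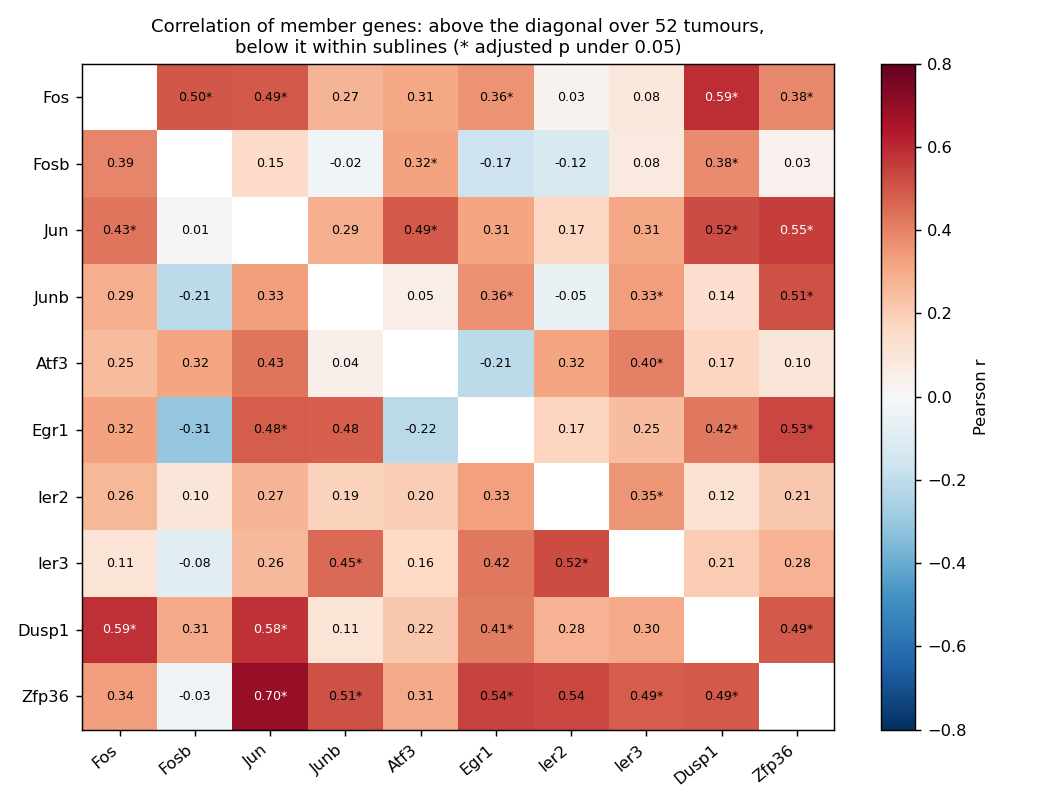
Pearson r of each pair of the 10 genes over 52 tumours (above the diagonal) and after subtraction of subline means (below it), from blue (negative) to red (positive), with a star where the adjusted permutation p is under 0.05, below the diagonal by permutation within sublines. Most cells are red in both triangles (40 of 45 positive in each), the rows of Fos and Zfp36 hold the most stars, and those of Atf3 and Ier2 the fewest.

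Of the 18 pairs over tumours, 3 were called under each of the alternatives tried, Fos with Dusp1, Jun with Dusp1 and Jun with Zfp36. Leaving out replicate 2 of every subline left 4 pairs called and leaving out replicate 3 left 7. With all 56 arrays the correlation of Fos with Fosb turned from 0.499 to -0.60.

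The genes whose differences between mice of 1 subline were most like those of each member were ranked by r over the 52 tumours after subtraction of subline means, as a description. Among all genes with a symbol of their own, Zfp36 was the first for Jun, and Jun was the second for Zfp36 after Pdcd6ip (r = 0.705). For Dusp1, Fos was the third (r = 0.585) after Fbxo9 and Slc38a4, Nfkbia the fourth (r = 0.583) and Jun the fifth (r = 0.581). For Fos, the first was Ppp3r1 (r = 0.594), then Depdc7 (r = 0.589), Dusp1, Rce1 (r = 0.554), Plek2, Tpd52l2, Map2k6, Snrpd3, Akr1d1, Zfp758, Riox2 and Prkag2 (r = 0.520).

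For Junb, the closest gene was Ier5l (r = 0.862), the highest value for any of the 10, followed by Pdcd10, Cebpb, Fzd7 and Selenoh (0.709 to 0.697). For Atf3 it was Klf6 (r = 0.752), then Dmkn, Acot9, Rdh10 and Pmvk. For Egr1 it was its paralogue Egr2 (r = 0.674), then Zfp36l1, Socs5, Bcl2l11 and Tsc22d1. For Ier2 it was Brms1 (r = 0.826, and 0.707 without tumour 1 of subline 21), then Stap2 (0.775, and 0.571 without it), Araf (0.771 and 0.685), Cblc (0.749 and 0.473) and Asl (0.749 and 0.49). Hpn led for Ier3 (r = 0.654), before Atpif1, Tnfrsf12a, Selenos and Hspa1b, and Trim31 for Fosb (r = 0.647), before Clec2g, Pnpla2, Gfi1b and Stk40. The other genes closest to Jun were Fam50a, Iars2, Pdcl3 and Nol7, and those closest to Zfp36 were Sypl, Echs1 and Tmem41b.

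A wider list of 57 genes of the same response (other early factors, the kinases and ternary complex factors upstream, and early secreted products) had 51 on array A, with 89 probe sets. Of these, 3 genes were called among sublines, and 5 of 89 probe sets (5.62%, beside the 1.74% of all probe sets). The list was written with earlier results of these data known, so its shares are a description and no test. Ier5, an early response protein that acts on heat shock factor, was called by a bright probe set, with subline 25 lowest at 9.68 ± 0.24 and subline 21 highest at 10.28 ± 0.14 (SD over 3 tumours, limma adjusted p = 0.00442). It was also called by a dim one, with a mean of 5.58 over tumours, which is below the highest absent-RNA controls (6.82 to 7.42) and which names other sublines (limma adjusted p = 0.00207). The remaining Ier5 probe set was not called (limma adjusted p = 0.334). Ptgs2, the inducible cyclooxygenase, was called by 2 probe sets whose means over tumours, 5.69 and 6.39, also lie below those controls (limma adjusted p = 0.000537 and 0.0473). The first was at 5.35 ± 0.27 in subline 11 and 7.50 ± 0.82 in subline 21 (SD, n = 3 each), and no fold is given against values in the range of absent RNA. Map2k2, the kinase MEK2 upstream of ERK, ran from 9.70 ± 0.14 in subline 16 to 10.10 ± 0.06 in subline 22, 1.32-fold (limma adjusted p = 0.0364). Its other probe set was not called (limma adjusted p = 0.764).

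The next of the list, each by its probe set of smallest p, were Nfkbia, Socs3, Klf6 and Elk4, with limma adjusted p of 0.0591, 0.0930, 0.105 and 0.143. An unadjusted p under 0.05 in at least 1 probe set was found for 15 of the 51 genes, many of which have several. By probe set it was 21 of 89 (23.6%), beside 15.2% of all probe sets. The count of called genes was 1, 0 and 1 when replicates 1, 2 and 3 of every subline were left out, which leaves most sublines with 2 tumours.

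Fos was set beside 14 marker lists of cell types and pathways and 2 measures of RNA quality, the signal of the 3' end minus the 5' end of Gapdh and of Actb. By permutation over the 52 tumours, adjusted over the 16, 0 were called for Fos, and 2 had an unadjusted permutation p under 0.05. These were the heat shock list (r = 0.375, rho = 0.387, p = 0.00668, adjusted permutation p = 0.107) and the milk protein list (r = 0.297, adjusted permutation p = 0.256). The r of Fos with the adipocyte, T cell, B and plasma cell, macrophage, endothelial, fibroblast and skeletal muscle lists lay between -0.08 and 0.14. Without replicate 3 of every subline the heat shock list was called (r = 0.565, adjusted permutation p = 0.0064).

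Over all 10 genes and the 16 measures, a family added after the Fos values had been seen, 4 of 160 relations were called (2.50%), while 3.51% of all genes' relations with these measures were at least as strong as the weakest of the 4. Atf3 rose with the luminal epithelial score (r = 0.625, rho = 0.610, adjusted permutation p = 0.0016, r = 0.560 without the 2 tumours farthest from the Atf3 median). Tumour 1 of subline 21, which had the lowest luminal score (-1.03) and Atf3 at 7.87, was not 1 of these 2. Atf3 also rose with the milk protein score (r = 0.542, rho = 0.452, adjusted permutation p = 0.00213). Junb fell as the Actb measure rose (r = -0.514, rho = -0.465, adjusted permutation p = 0.006). Ier2 followed the luminal score (r = 0.736, rho = 0.467, adjusted permutation p = 0.0016), but at r = 0.426 without tumour 1 of subline 21 (adjusted permutation p = 0.054). By r, 0 of the 10 genes had a called relation with the heat shock list, and its median r with them, 0.297, was the highest of the 16 (median over all genes -0.017). By rank 7 relations were called, these 4 and 3 more, Junb with the heat shock list (rho = 0.444, adjusted permutation p = 0.0291), Egr1 with the B and plasma cell list (rho = -0.469, adjusted permutation p = 0.022) and Ier3 with the luminal list (rho = 0.431, adjusted permutation p = 0.037).

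Within sublines, with tumours permuted freely, 13 of the 160 relations were called (8.12%), below the 13.2% of all genes' relations that were at least as strong as the weakest of the 13. Junb and Ier3 had a positive r with the heat shock list (0.416 and 0.428), and Junb, Egr1 and Ier3 a negative r with the T cell list (-0.469, -0.525 and -0.475). The others were Egr1 with the B and plasma cell list (-0.458), Ier3 with the endothelial (-0.492) and skeletal muscle lists (-0.430), Dusp1 with the hypoxia list (-0.414), Junb with the proliferation list (0.400) and the Actb measure (-0.493), and Atf3 and Ier2 with the luminal list (0.537 and 0.645, the latter 0.258 without tumour 1 of subline 21). With tumours permuted only inside their own subline 1 of the 160 was called (0.625%), Atf3 with the luminal list (adjusted permutation p = 0.0192). Tumour 1 of subline 21 was kept in that test.

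**Figure D5:**
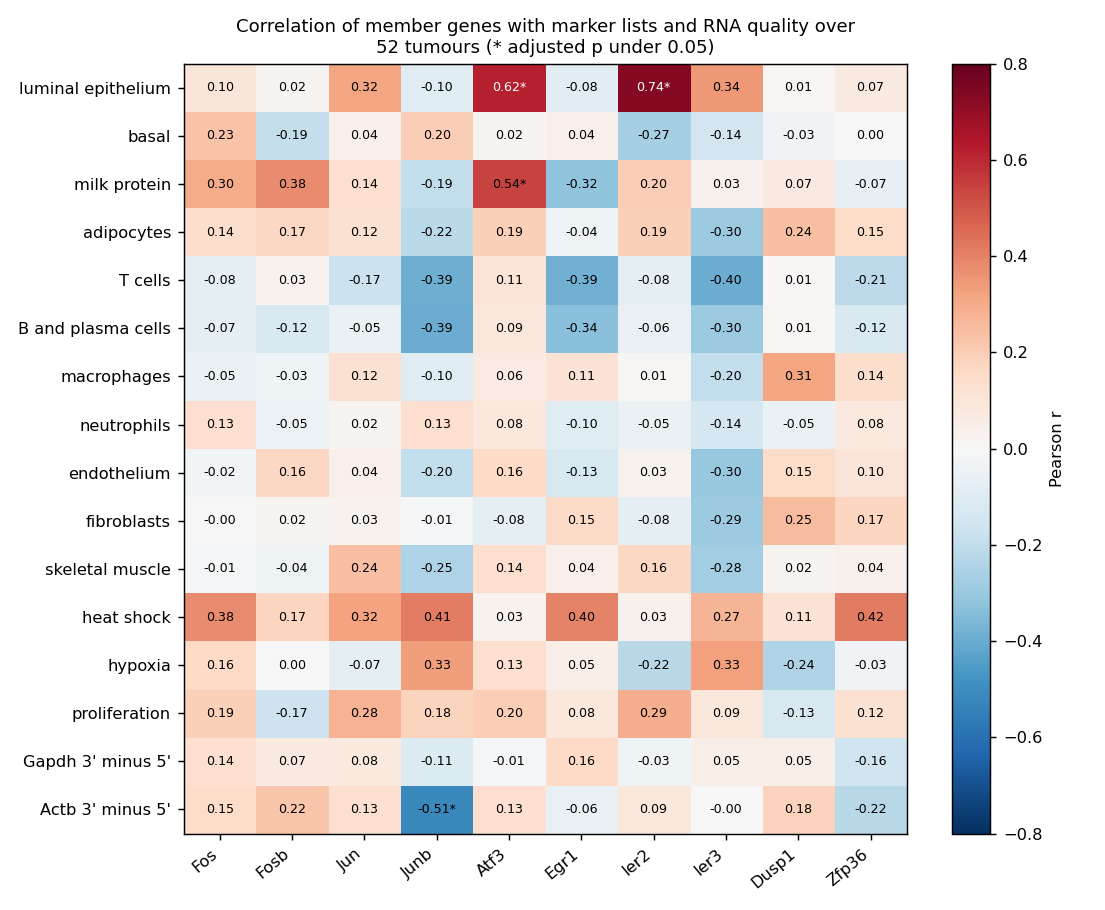
Pearson r over the 52 tumours of each of the 10 genes (columns) with 14 marker lists and 2 measures of RNA quality (rows), from blue (negative) to red (positive), with a star at an adjusted permutation p under 0.05. The stars are those of Atf3 with the luminal and milk protein lists, Ier2 with the luminal list and Junb with the Actb measure, and the heat shock row is mostly pale red (median r 0.297).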

How the data were processed

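Whole mouse mammary tumours were profiled on single-colour Affymetrix arrays. Per the submitters' processing notes, the authors summarised the arrays with RMA, and the deposited values are on the log2 scale. Total RNA came from Trizol extraction and column clean-up, per the labels' protocols. For RMA's version, the probe set definition used and the build, nothing is stated in the labels. No further normalization was applied. Columns of other series: 0. Control probe sets (64) were set aside. Symbols came from the platform annotation, updated through RefSeq (GRCm38.p6): 20380 probe sets had 1 symbol, 691 several and 1555 none.

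Sublines were compared with limma 3.58.1 in R 4.3.3 (lmFit and eBayes, 1 mean per subline, 35 residual degrees of freedom), adjusted over all probe sets, and each subline with the unweighted mean of the others, adjusted within each comparison. Correlations used Python 3.11.15 and numpy 2.4.6, 1 probe set per gene, the brightest, and 100000 permutations. A list score averages, over a list's genes, how far each lies from its own mean on the log2 scale. The scripts were tested on simulated data. The most similar arrays had a correlation of 0.996, so none was counted as a duplicate. Precision is limited by how many arrays there are, since the files give no counts.

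The members and lists were chosen with earlier results of these data known. The text names all 11 member probe sets, the called genes of the wider list and its next by p, and the genes most like each member (12 for Fos, 5 for the others). The planned tests on array B could not be run, since it holds 0 probe sets of these genes. Alternatives were all 56 arrays, the replicate number as a block, probe sets brighter than the median, array weights, median centring, quantile normalization, a trended robust prior, composition scores, the Gapdh measure or animal number as covariates, rank correlation, the median of a gene's probe sets and leaving out each replicate. Leaving out tumour 1 of subline 21, permuting within sublines (pairs and lists) and testing all members against the lists were added after seeing the data.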

Additional observations from a re-analysis of the deposited data

Results flagged for a closer look

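Dusp1 in tumour 3 of subline 2 read 9.95, against 8.98, 9.09 and 8.98 in the other 3 tumours of its subline. It was picked out because its gap to the next tumour was a large part of the subline's range, in the only subline with 4 tumours, where chance picks about 1 in 20 groups and 11 probe sets were examined.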

How the results depend on the processing

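The count of 0 member probe sets called among sublines by limma (2 at an unadjusted p under 0.05) became 1 with all 56 arrays (Junb) and 4 with array weights (Fos, Junb, Atf3 and the dimmer Jun probe set), a setting that called 9234 of 22626 probe sets, and it was 0 under the other alternatives and without tumour 1 of subline 21. The single member call against the other sublines (Ier2 in subline 21) became 8 with all arrays, each in subline 23, and 5 with array weights, and in neither was Ier2 called in subline 21 (limma adjusted p = 0.969 and 0.511). The count became 0 without tumour 1 of subline 21 and 0 to 1 with a replicate left out. Genes of the wider list called numbered 30 with array weights and 0 to 4 with a replicate left out. Member pairs called over tumours numbered 39 with all arrays and 4 to 18 with a replicate left out. Within sublines they numbered 42 with all arrays, 12 when permuted within sublines and 11 to 20 with a replicate left out. Lists called with Fos numbered 8 with all arrays and 0 to 1 with a replicate left out. With all arrays the r of Fos, Atf3 and Dusp1 with Fosb turned to -0.60, -0.30 and -0.067 over tumours and to -0.66, -0.43 and -0.092 within sublines. With a replicate left out the r of Atf3 with Zfp36 within sublines ran from -0.043 to 0.62. The cause was not tested. Replicate numbers did not pair the tumours (median correlation of deviations 0.000675 for the same number, lowest -0.593), and with the replicate block 0 member probe sets, 1 member comparison, 2 genes of the wider list and 17 and 23 pairs were called. The composition alternative was not run for the lists, which it is made from.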
